A study of Mus musculus with 10 samples.

Results

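The forkhead factor FoxO6 was compared with the control protein DsRed on the first day of reprogramming, in 2 of the 10 RNA-seq libraries of a time course. Both libraries came from mouse embryonic fibroblasts (MEFs), prepared from E13.5 embryos of the cross CBA/CaJ X C57BL/6J, and carried an Oct4-GFP reporter according to the methods of the study. Retroviruses delivered Oct4, Klf4 and Sox2 (OKS) to the cells of both arms, the factors that turn a fibroblast towards a pluripotent stem cell, and the cells then grew in iCD1, a defined reprogramming medium. The OKS + FoxO6 arm received FoxO6 in addition, and the OKS + DsRed arm (labelled DR) received the red fluorescent protein, so the DsRed library is itself a reprogramming culture and not a resting fibroblast. Each arm was sampled at days 0, 1, 3, 5 and 7 with 1 library each time. A gene entered the comparison when it had at least 10 expected counts, the reads that RSEM assigned to it, in the higher of the day 1 libraries. This kept 11303 of 50600 genes, of 17566 with any count. No animal, pool or clone number is given, retroviral dose per cell was not measured here, and all 5 days of an arm may have been drawn from 1 infection.

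FoxO proteins are transcription factors that insulin and growth factor signalling keeps in check through AKT, which marks most of them for export from the nucleus. When active they bind a short DNA site and turn on genes for growth arrest, stress defence, autophagy and metabolism, and FoxO6 differs from its relatives in that it stays largely in the nucleus. In the first days of reprogramming MEFs begin to lose their fibroblast programme and to switch on epithelial genes, the mesenchymal to epithelial transition, while most pluripotency genes come later. The question of the comparison was which genes FoxO6 had moved by the time this process had just begun.

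Depth was similar on both sides, with 1517045 expected counts in the DsRed library and 1641448 in the FoxO6 library, in a series that ran from 1208379 to 2225750. Each library had 10791 genes with at least 10 counts, mitochondrial genes held 3.65% and 3.91% of the counts, and the 10 most abundant genes held 4.9% and 4.75%. Differences are given as log2(TPM + 1) of FoxO6 minus DsRed, where TPM is the level corrected for transcript length and library size, and the added 1 understates the change of weak genes. The median difference over all genes was 0.01, with quartiles of -0.33 and 0.34. With 1 library a side no difference on this day has a replicate check. An exact binomial test asked whether a gene's reads split between the 2 libraries otherwise than their totals would, so it compares those libraries and not the conditions. Its p-values and the 95% intervals of count ratios cover counting error only. A gene is called higher or lower here when it was past 2-fold and its adjusted p from that exact test was under 0.05.

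Foxo6 itself (ENSMUSG00000052135, chromosome 4 of GRCm38, 120267079 to 120287349, minus strand) had 3 counts in the DsRed library and 2781 in the FoxO6 library, or a TPM of 1.55 and 1325. The ratio of the counts scaled to library totals was 857, with an interval of 293 to 4157, and the delivered copy and the cell's own gene are counted together. The 3 factors that both arms received differed far less. Pou5f1 (Oct4) had a TPM of 4168 with DsRed and 4742 with FoxO6, Sox2 had 2342 and 2840, and Klf4 had 2290 and 2323. Their differences were 0.19, 0.28 and 0.02, all under 2-fold, and all 3 passed the exact test described above as higher with FoxO6. Pou5f1 was also higher with FoxO6 on every other day, at day 5 with a TPM of 3720 with DsRed and 7071 with FoxO6. On CPM, counts scaled to library size, with TMM factors Klf4 differed by 0.22, since its effective length, the part of a transcript that reads can cover, was set 1.16 times longer in the FoxO6 library.

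Of the 11303 genes, 590 were past 2-fold and higher with FoxO6 (5.22%) and 697 were past 2-fold and lower (6.17%). The exact test passed 2177 genes, of which 1393 were under 2-fold. Both thresholds together left 343 genes called higher (3.03%) and 441 called lower (3.9%), and these shares are the background for every count of list members that follows. Called genes were modest in size, with a median difference of 1.48 for the higher genes and -1.55 for the lower genes. Past 8-fold there were 31 higher and 26 lower genes. In the DsRed library 24 of the higher genes had 0 counts, and in the FoxO6 library 21 of the lower genes did.

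**Figure D1:**
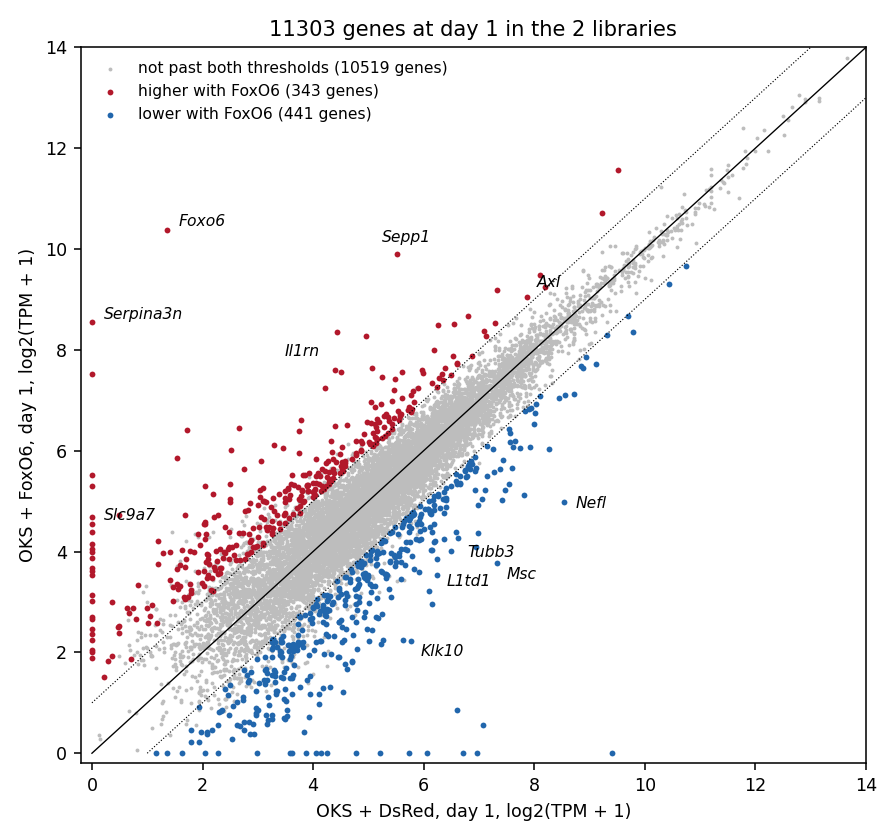
Level of each of the 11303 genes in the day 1 DsRed library (x) and FoxO6 library (y), in log2(TPM + 1), with 1 point per gene, a solid line at equality and dotted lines at 2-fold. Red points are the 343 genes called higher with FoxO6 and blue points the 441 called lower. Foxo6 and Serpina3n stand farthest above the lines among the genes that carry a name in the plot, followed by Slc9a7 and Sepp1. Nefl stands far below the lines.

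Among the genes with names of known genes other than Foxo6, the highest differences were in Serpina3n, Slc9a7, Lbp and Sepp1. Serpina3n, an acute phase protease inhibitor on chromosome 12 (104406729 to 104414329, plus strand), had 0 counts with DsRed and 613 with FoxO6, at least 189-fold higher against a floor of 3 counts per library. Such a bound takes the FoxO6 count as it is, and with counting error on both sides the 95% interval of the ratio began at 153. Sepp1 (chromosome 15, 3268547 to 3280508, plus strand), the plasma selenoprotein that carries selenium between tissues and a known FoxO target of the liver, went from 59 to 1357 counts, a TPM of 45.0 against 958 and a difference of 4.38. The ratio of its scaled counts was 21.3, with an interval of 16.4 to 28.1. Lbp, which binds bacterial lipopolysaccharide in plasma, had 0 and 36 counts, at least 11.1-fold higher against the floor, with an interval from 8.57. The kininogens Kng1 and Kng2, precursors of bradykinin, had 0 counts with DsRed and 24 and 20 with FoxO6, at least 7.39-fold and 6.16-fold higher against the floor, with intervals from 5.56 and 4.56. Pamr1, a secreted protease-like protein, had 4 counts with DsRed and 128 with FoxO6, a difference of 4.33.

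Of the other genes among the 12 highest, the Ras GTPase-activating protein Rasal3 had 1 and 46, a ratio of scaled counts that rests on a single read. Slc9a7, a sodium and proton exchanger of the Golgi, had the highest difference after Serpina3n, 4.54, with 0 and 41 counts, at least 12.6-fold higher against the floor and with an interval from 9.82. Ifitm1, a membrane protein that interferon can induce, had 2 and 44 counts, a ratio of 20.3 with an interval of 5.30 to 173. Egr2, an immediate early zinc finger factor, had 0 and 18 counts, and Tigit, an immune receptor better known from T cells, had 0 and 11. These low numbers place the genes above the floor and leave the size of the fold wide.

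Gemin4, the remaining gene of the 12 highest, shares most of its sequence with an overlapping gene. It had 0 counts with DsRed and 39 with FoxO6, but 90.2% of its 50-base words also occur in transcripts of other genes, Glod4 first. Glod4 had 65 and 43 counts, so the pair summed to 65 and 82 and differed by 0.22 on the log2 CPM scale. Only the 130 genes named by rule were searched for shared words. Among them another 3 called genes had such a partner, and their calls stand in the counts above. Zbed6 went from 50 to 1, all of its words occur in Gm38394, and the pair summed to 223 and 240. Rps27rt, a copy of a ribosomal protein gene, went from 25 to 0, while with Rps27 the sum was 298 and 306. The mitochondrial gene mt-Nd3 went from 130 to 395 while its nuclear copy Gm28438 went from 145 to 0, so that the pair summed to 275 and 395 and differed by 0.41. In all 4 pairs the sum was under 2-fold. Of the 130 genes named by rule, 19 share over 20% of their words with other genes, among them Nefl with 31.8% and Ctsl with 26.3%, and 53 share none.

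On the lower side the 12 largest differences included neuronal, signalling and transcription factor genes. Nefl, the light neurofilament chain of axons (chromosome 14, 68083863 to 68089095, plus strand), had 934 counts with DsRed and 83 with FoxO6, a TPM of 372 against 30.4 and a difference of -3.57. Scaled to totals it was 12.2 times higher with DsRed, with an interval of 9.72 to 15.4. Msc (musculin), a bHLH repressor of muscle genes, had 178 and 14 counts, 13.8 times higher with DsRed. The serine protease Klk10 had 53 and 4 counts, 14.3 times higher with DsRed with an interval of 5.28 to 54.5. Calcb, a neuropeptide of the calcitonin family, had 48 and 5 counts, and Nppc, the C-type natriuretic peptide, had 36 and 3. Adra1d, an adrenergic receptor, had 31 and 2 counts, Elfn1, a synaptic adhesion protein, had 21 and 2, and Zcwpw1, Efhd1 and Dmrtc2 had 16, 15 and 13 counts with DsRed and none with FoxO6.

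Most genes of the epithelial switch that could be measured had lower values with FoxO6, 9 of 10. Of the 34 genes on this list only 10 passed the count filter, with a median difference of -1.35 against 0.01 for all genes, and 6 of the 10 were called lower and none higher. Cdh1 (E-cadherin, chromosome 8, 106603351 to 106670246, plus strand), the adhesion molecule that defines epithelia, had 37 counts with DsRed and 2 with FoxO6, 20.02 times higher with DsRed with an interval of 5.16 to 171. Its difference in log2(TPM + 1) was only -1.60, because the effective length of Cdh1 in the FoxO6 library was 0.18 of that in the DsRed library. On the CPM scale it was -3.52. The keratin Krt19 had 17 and 5 counts, the splicing factor Esrp2 11 and 1, the protease inhibitor Spint2 40 and 15, and the desmosome genes Pkp2 56 and 20 and Dsp 306 and 138. Epcam, with 2 and 6 counts, was among the 24 genes that were too low to test, and 10 genes of the list had 0 counts in both libraries. Cdh1, Krt19 and Esrp2, 3 of the 6 lower calls, passed the count filter through the DsRed library alone, where they are high, so the median and the count of calls over the measured genes are a description only.

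Neuronal and axon genes, the longest of the lists, also had the most lower calls of them. Of 49 measured genes of the 72 listed, 38 had a lower value with FoxO6, the median difference was -0.65, and 15 were called lower and 1 higher. Beside Nefl, the medium neurofilament Nefm had a TPM of 32.6 with DsRed and 8.92 with FoxO6. The neuronal tubulin Tubb3 had a TPM of 97.2 and 18.3, with 133 and 25 counts. The neurotrophin receptor Ngfr had 41.8 and 7.55, and the axon guidance ligand Ntn1 (netrin-1) had 59.1 and 11.1. Ntn4, another netrin, was the single member called higher, from 9.95 to 65.8 TPM. Nefh, Dcx, Elavl3 and Snap25, which mark neurons of different ages, were under 10 counts in both libraries, and Dcx and Snap25 had none.

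**Figure D2:**
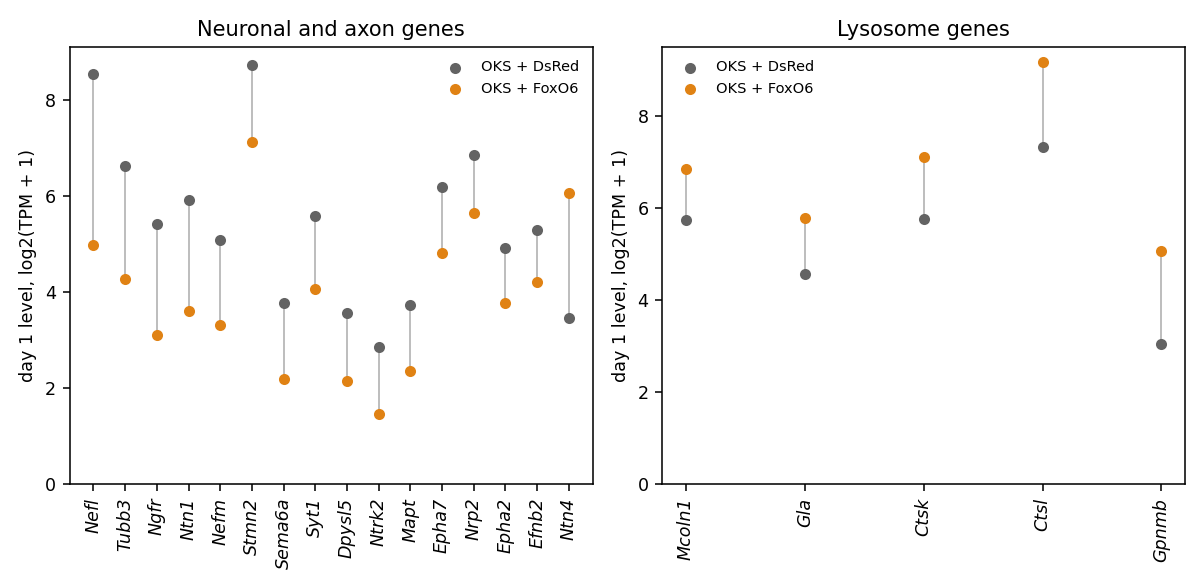
Day 1 level in log2(TPM + 1) of the called members of the neuronal and axon list (left, 16 genes) and of the lysosome list (right, the 5 named in the text), with DsRed in grey, FoxO6 in orange and a line joining the 2 libraries of each gene. All neuronal genes but Ntn4 lie lower with FoxO6, and the 5 lysosome genes lie higher.

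Lysosome genes lay on the higher side in small steps. Of 43 measured genes 38 had a higher value with FoxO6, with a median difference of 0.48, 24 passed the exact test alone, and 6 were called higher and none lower. Ctsl, the lysosomal cysteine protease cathepsin L, had 232 counts with DsRed and 914 with FoxO6, a TPM of 160 against 582. Gpnmb, a glycoprotein of lysosome-rich cells, had 15 and 75 counts. The collagen-degrading Ctsk had a TPM of 53.7 and 138, and the galactosidase Gla had 22.8 and 54.4. The calcium channel Mcoln1, also called higher, had 80 and 154 counts, a difference of 1.12 in TPM that was under 2-fold in CPM at 0.82. Tfeb, the master regulator of lysosome genes, was not called and had 55 and 31 counts, a difference of -0.88.

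Most autophagy genes had a higher value with FoxO6, with few calls. Of 46 measured genes 33 had a higher value with FoxO6, the median difference was 0.39, and 3 were called higher and none lower. Wipi1, which recruits the machinery to the growing membrane, had 26 counts with DsRed and 88 with FoxO6 and a difference of 1.63. Bnip3l, a mitophagy receptor, and Vmp1, needed to form the autophagosome, were just past 2-fold in TPM at 1.01 and 1.00, and fell under it on the CPM scale with TMM factors at 0.54 and 0.64, where of the 3 only Wipi1 was still called.

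Known FoxO targets were split into a few large and many small differences. Of 39 listed genes 30 were measured, 24 had a higher value with FoxO6, the median was 0.45, and 3 were called higher and none lower. Beside Sepp1 these were Gadd45a, a growth arrest and DNA damage gene, with 19 and 157 counts and a difference of 3.06, and Sesn3 (sestrin 3), a regulator of mTORC1, with 221 and 482 counts and a difference of 1.07 that was 1.01 in CPM and 0.99 in CPM with TMM factors. The cell cycle inhibitors Cdkn1a and Cdkn1b, both classical FoxO targets, were not called, with 1164 and 1121 counts and with 54 and 79. The classical liver targets Igfbp1 and G6pc had 0 counts in both libraries. Foxo4, a relative of FoxO6, was called lower, with a TPM of 89.7 with DsRed and 38.4 with FoxO6, the only call among the 3 other FoxO genes.

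Insulin and IGF pathway genes, which lie upstream of FoxO proteins, had a median of 0.23 over 27 genes, with 2 called lower and none higher. Igfbp3, which binds IGF outside the cell, had a TPM of 552 with DsRed and 210 with FoxO6, and the receptor adaptor Grb14 had 66.7 and 27.8. Of 17 histone deacetylase genes, median 0.29, Hdac9 alone was called, higher from 29 to 88 counts, a ratio of 2.80 with an interval of 1.82 to 4.43. Its effective length was 0.745 times as long with FoxO6, and its difference was 1.79 in TPM and 1.44 in CPM. The list of selenoproteins and oxidant defence had a median of -0.08 over 28 genes, with Sepp1 called higher and the quinone reductase Nqo1 called lower from 75.3 to 34.3 TPM.

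Acute phase and complement genes had the highest list median, 0.75 over the 14 measured of 45, with 4 called higher and none lower, while 19 of the 45 had no counts in either library. The 4 were Serpina3n, Lbp, the LIF receptor Lifr (36 and 113 counts) and the C1q-related C1qtnf1 (71 and 198 counts). Complement C3 and the serum amyloids Saa1 and Saa3, which are typical of a full acute phase response, were among those with none. Serpina3n and Lbp passed the count filter through the FoxO6 library alone, where they are high. The median and the count of calls of this list are therefore a description only. At days 0, 3, 5 and 7 the list's median was 0.69, 0.51, -0.18 and -0.22. Genes of wound healing, coagulation and kinins went both ways, with a median of 0.13 over 30 genes, 6 called higher and 5 lower. Pros1 (protein S), an anticoagulant and a ligand of the receptor Axl, had a TPM of 75.4 with DsRed and 362 with FoxO6 and a ratio of 4.82, with an interval of 4.11 to 5.67. Axl itself had 232 and 532, a ratio of 2.36 with an interval of 2.16 to 2.59. Vegfa, the vascular growth factor, was lower at 61.1 and 17.98.

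Inflammatory genes of the TLR and NF-kB list were likewise divided, with a median of 0.02 over 34 genes, 4 called higher and 5 lower. The interleukin 1 receptor antagonist Il1rn, a natural blocker of the cytokine, had 22 counts with DsRed and 308 with FoxO6, a ratio of 12.9 with an interval of 8.39 to 21.0. The receptor Tlr4 had 4 and 23 counts. The chemokines Ccl2, Ccl7 and Cxcl12 were called lower, with 34 and 11, 68 and 22, and 53 and 21 counts. The type I interferon list had a median of -0.57 over 23 genes but only 2 calls, both higher, Ifitm1 and Oas2 (12 and 47 counts), and its median was -0.20 in CPM with TMM factors. None of the 17 measured genes of interferon gamma and antigen presentation was called, with a median of -0.03 in TPM and 0.09 in CPM with TMM factors. Of them B2m, the light chain of MHC class I, had a TPM of 658 and 1066, while H2-K1 had 124 and 95.6.

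Matrix genes were called in both directions, more of them lower. Of 34 measured collagens and matrix genes 23 had a lower value with FoxO6, the median was -0.47, and 6 were called lower and 2 higher. Both collagen VI chains encoded on chromosome 10 were among them, Col6a1 with a TPM of 470 with DsRed and 199 with FoxO6 and Col6a2 with 141 and 44.0. Mgp, an inhibitor of calcification, was higher with 2 and 29 counts, and the matricellular protein Postn with 37 and 76. On the CPM scale with TMM factors Postn was under 2-fold at 0.88, and Col12a1, one of the 6 lower genes, at -0.68. Mesenchymal genes did not share a direction, with a median of 0.04 over 27 genes, 4 called higher and 2 lower. Tgfbr2, a TGF-beta receptor, had a TPM of 91.1 and 234, and Prrx1, a transcription factor of limb and fibroblast mesenchyme, had 347 and 131. Twist2 was level at 34 and 32 counts.

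The TGF-beta and BMP list had a median of -0.02 over 28 genes, 3 called higher and 4 lower. Id1 and Id2, inhibitors of bHLH factors and direct BMP targets, had a TPM of 34.8 with DsRed against 12.6 with FoxO6 and of 89.6 against 15.1. The BMP antagonist Grem1 was lower too, at 55.6 and 11.6, and so was the matrix protein Tgfbi at 36.9 and 11.2. Smad6, an inhibitor of BMP signalling, had 0 and 10 counts, at least 3.08-fold higher against the floor, with an interval from 2.07. Wnt targets had a median of -0.06 over 17 genes, with 3 called higher, the secreted antagonists Dkk2 and Dkk3 among them at 19 and 49 and at 6 and 25 counts, and 1 lower, the cyclin Ccnd1, at a TPM of 488 and 233. ERK targets had a median of 0.04 over 28 genes, with 3 called in each direction. Myc was higher at 38.8 and 105 TPM and Egr1 at 96.8 and 208, while Phlda1 was lower at 108 and 43.8. Dusp5 had 14 and 11 counts and was not called.

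No gene of the cell division lists, S phase and G2/M, was called on this day, while the cyclin Ccnd1, on the Wnt list, was called lower. The 52 S phase and 56 G2/M genes had medians of -0.05 and -0.20, and 2 S phase genes were past 2-fold as lower without being called. Of the G2/M genes 38 had a lower value with FoxO6, and 10 passed the exact test as lower and 1 as higher, while of the S phase genes 27 had a lower value and 2 passed, both as lower. The replication clamp Pcna had a TPM of 180 with DsRed and 202 with FoxO6, and the mitotic ubiquitin conjugase Ube2c had 293 and 299, while the nucleotide reductase subunit Rrm2 had 189.6 and 159.9 and Psrc1 of the spindle had 240.3 and 185.5. Of 32 CDK inhibitors and p53 targets, median 0.10, Gadd45a alone was called. None of the 35 synthesis genes of cholesterol and fatty acids was called. Their median was -0.44, 30 had a lower value with FoxO6, and 16 passed the exact test as lower and 4 as higher. The desaturases Scd1 and Scd2 had a TPM of 316 and 178 and of 918 and 556. Glycolysis genes had a median of -0.22 over 25 genes, with the glucose transporter Slc2a3 called lower at 30.9 and 10.6 TPM and none called higher.

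Housekeeping groups had medians near 0. None of the 56 cytosolic ribosomal protein genes and none of the 49 nuclear respiratory chain genes was called, with medians of -0.05 and 0.02. Among the ribosomal protein genes 37 had a lower value with FoxO6, and 9 passed the exact test as lower and none as higher. The 13 mitochondrially encoded genes had a median of 0.13 with mt-Nd3 as the one call, which was under 2-fold when summed with its nuclear copy. In that list 10 genes had a higher value with FoxO6, and 8 passed the exact test as higher and none as lower. The unfolded protein and integrated stress response list had a median of -0.08 over 37 genes and 1 call, the arginine transporter Slc7a3, lower at 36 and 8 counts. Solute carriers were divided with a median of 0.01, 6 called higher and 4 lower of 32. Slc4a11, a transporter of the corneal endothelium, had a TPM of 17.6 with DsRed and 151 with FoxO6, and the iron exporter Slc40a1 had 8 and 35 counts.

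Pluripotency genes were mostly too low to measure. Of 28 listed genes 14 had 0 counts in both libraries, Nanog, Esrrb and Dppa5a among them, and 8 were measured with a median of 0.09 in TPM and -0.18 in CPM with TMM factors. Only L1td1, an RNA-binding protein of embryonic stem cells, was called, with 136 counts with DsRed and 20 with FoxO6, 7.36 times higher with DsRed with an interval of 4.58 to 12.4. Sall4 had 1 and 3 counts and Zfp42 (Rex1) had 1 and 0. Muscle contractile genes had a median of -0.47 over 10 genes and 3 calls, all lower, the myosin chains Myh1 (105 and 22 counts) and Myh2 (27 and 6) and the smooth muscle actin Actg2 (103 and 55, -1.13 in TPM and at the edge of 2-fold in CPM).

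**Figure D3:**
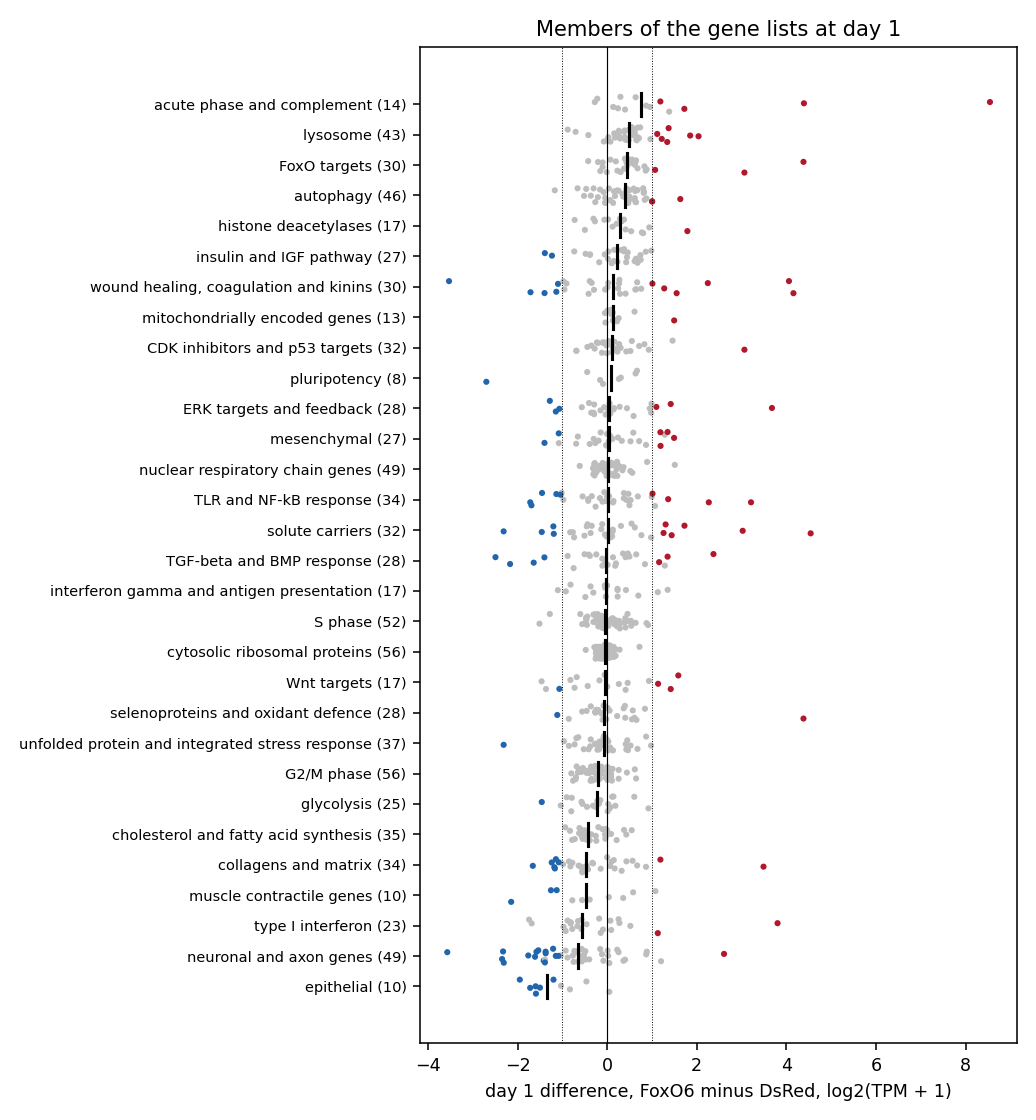
Day 1 difference, FoxO6 minus DsRed in log2(TPM + 1), of the measured members of each gene list with at least 8 of them (number in brackets), 1 point per gene, red for called higher, blue for called lower and grey for the others, with the list median as a black bar and dotted lines at 2-fold. The medians run from -1.35 for the epithelial list to 0.75 for acute phase and complement, and the ribosomal and respiratory chain lists centre near 0. In the epithelial and acute phase lists some called genes passed the count filter through 1 library alone.

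Markers of the cell types that a MEF culture can hold were read in both libraries. All 12 fibroblast markers were measured, with a summed TPM of 7087 with DsRed and 4721 with FoxO6, a median difference of -0.38, Pdgfrb called higher (17 and 60 counts) and Prrx1 lower. Of 12 neural markers 7 were measured and 5 were called lower, Nefl, Nefm, Tubb3, Stmn2 and Nes, and the whole list summed to a TPM of 1054 and 282, with Dcx and Snap25 at 0 in both. Of 12 macrophage markers Cd68 (46 and 19 counts) and Laptm5 (32 and 13 counts) were measured and called lower, the list summed to 87.9 and 35.2, and Csf1r, Tyrobp, Fcer1g and C1qa were at 0 in both. Endothelial markers were measured for 2 of 12, 1 with a higher and 1 with a lower value with FoxO6. Tek alone of them was called, higher at 21.9 and 54.2 TPM, and Pecam1, Emcn, Cldn5 and Robo4 were at 0 in both. The embryonic globin Hbb-y, the 1 measured of 8 erythroid markers, was called lower at 258 and 107. Of 8 keratinocyte markers Perp and Sfn were measured, of 8 skeletal muscle markers Des, Acta1 and Chrna1, and none was called. In bulk RNA fewer cells of a type and less RNA per cell cannot be told apart, and the part of the neural markers in the lower axon genes was not tested, since 5 of the genes are the same.

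FoxO proteins bind the core GTAAACA, and the promoters of the called genes were searched for it on both strands, in the 250 bases before and the 50 bases after the start of each gene in RefSeq on GRCm38.p6. Of all 32851 promoter windows, 3.65% hold it. A window was at hand for 540 of the 784 called genes, too few to compare shares between the groups, and a match describes the letters only. It is held by 14 of the 247 windows of higher genes, 9 of the 293 of lower genes and 258 of the 8845 of all genes tested, counts from which nothing is read. It is found in Sepp1, Ifitm1 and Axl among the named genes that were higher and in Col6a1 among those that were lower. These are shown because the first 3 were higher on every day of the course. The 250 bases before the start are given for Sepp1 (chr15:3270727-3270976, plus strand, motif at position -24 from the start) and Axl (chr7:25788734-25788983, minus strand, motif at -229), and the stretch around the motif for Ifitm1 (inside the window chr7:140967826-140968125, plus strand, motif at 34) and Col6a1 (inside chr10:76725995-76726294, minus strand, motif at -211). Capitals mark the motif or its reverse complement.
Sepp1: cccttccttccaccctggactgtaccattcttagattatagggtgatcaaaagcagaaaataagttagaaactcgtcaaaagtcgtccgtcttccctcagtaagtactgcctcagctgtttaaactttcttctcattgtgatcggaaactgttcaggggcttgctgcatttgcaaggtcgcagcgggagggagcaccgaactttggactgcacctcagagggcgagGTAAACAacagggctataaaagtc
Axl: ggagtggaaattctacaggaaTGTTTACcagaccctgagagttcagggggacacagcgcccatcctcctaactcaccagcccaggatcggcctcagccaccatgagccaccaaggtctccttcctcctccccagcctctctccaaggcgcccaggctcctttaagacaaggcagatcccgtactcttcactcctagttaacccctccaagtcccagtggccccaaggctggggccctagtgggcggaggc
Ifitm1: gcacaccaaattGTAAACAtaaggaagt
Col6a1: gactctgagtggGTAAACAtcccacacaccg

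The other days show whether the genes of day 1 had the same direction in libraries that the day 1 call did not use. Background calls on those days were 4.45% higher and 2.12% lower at day 0, 4.17% and 6.55% at day 3, 6.52% and 7.04% at day 5 and 5.83% and 11.9% at day 7. Of the 342 genes called higher at day 1 other than Foxo6, 122, 145, 137 and 123 were called higher again at days 0, 3, 5 and 7, which is 38.6%, 44.5%, 42.8% and 38.4% of those measured on the day. Their median differences were 0.90, 0.91, 0.87 and 0.69, against 0.13, 0.02, 0.04 and -0.17 for all genes of those days. Of the 441 genes called lower at day 1, 65, 209, 132 and 150 were called lower again, or 18.5%, 51.6%, 34.6% and 39.6%, with medians of -0.34, -1.11, -0.69 and -0.83. The lower genes had their smallest share at day 0, when the background of lower calls was smallest too, and their largest at day 3, while the shares of the higher genes stayed within a narrow range.

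**Figure D4:**
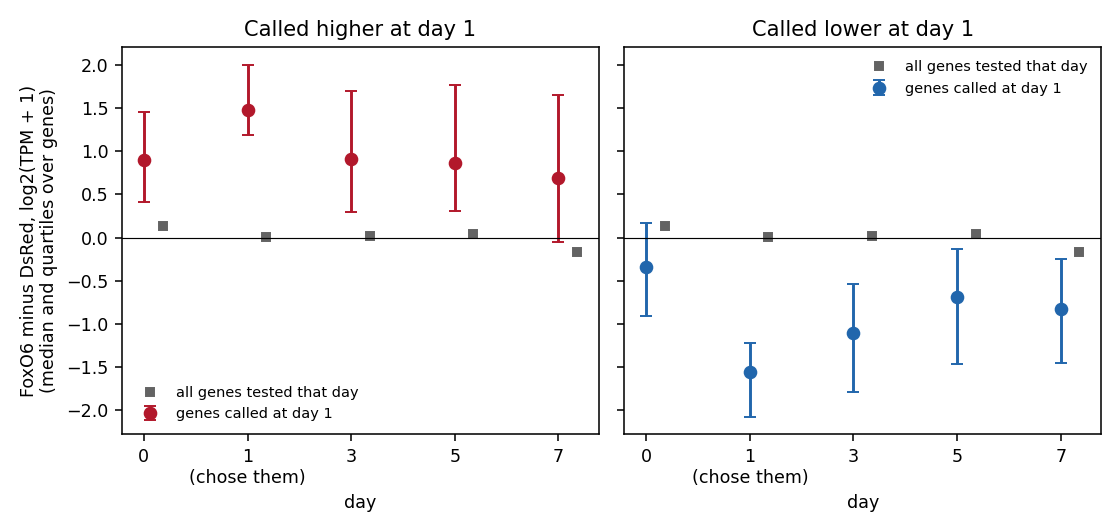
Median and quartiles, over genes, of FoxO6 minus DsRed in log2(TPM + 1) on each day for the 342 genes called higher at day 1 (left) and the 441 called lower (right), with the median of all genes tested that day as a grey square. Day 1 chose the genes, and on the other 4 days the medians keep the sign of day 1 at 0.90, 0.91, 0.87 and 0.69 on the left and -0.34, -1.11, -0.69 and -0.83 on the right.

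A set of 43 genes other than Foxo6 was called higher on all 5 days. It includes Serpina3n, Sepp1, Il1rn, Gadd45a, Pamr1, Slc4a11, Ifitm1, Kng2, Pros1, Axl, Tgfbr2, C1qtnf1, Hdac9, Ctsl, Ctsk and Gla. Called lower on all 5 days were 18 genes: Calcb, Cdh1, Crabp2, Fbxo40, Hey2, Id1, Id2, Kank4, L1td1, Lgr6, Lpl, Miat, Myh1, Myh2, Nefl, Ociad2, Tppp3 and Tubb3. At the other end, 106 of the higher and 162 of the lower genes were called in the same direction on no other day. Some genes turned, such as Cxcl12, which was lower at day 1 and called higher at days 5 and 7, and Egr1, which was called lower at day 7. Msc was 13.8 times higher with DsRed at day 1, had a TPM of 357 against 39.6 at day 3 and of 36.7 against 112 at day 7.

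The spread between days gives a test that read sampling does not. In edgeR's quasi-likelihood fit to all 10 libraries, with day as a factor and a term of its own for day 1, the arms differed over days 0, 3, 5 and 7 in 617 of 12936 genes as higher (4.77%) and 576 as lower (4.45%) at an adjusted p under 0.05. Of the 342 genes called higher at day 1, 160 were among the former (46.8%) and none among the latter. Of the 441 lower genes 150 were among the latter (34.0%) and 1 among the former. This fit takes the days as replicates of the arm and says nothing of separate infections. Without day 3 it passed 218 higher and 200 lower genes, and without day 5 it passed 132 and 103. When the day 1 contrast itself was set against that spread, with 3 residual degrees of freedom, only 5 genes passed (0.0387%). Serpina3n, Sepp1, Slc4a11 and Foxo6 were higher and Nefl was lower, with 856 genes at an unadjusted p under 0.05. This count was 13 higher and 11 lower without day 0, 2 and 1 without day 3, 1 and 0 without day 5, 26 and 30 without day 7, and 13 and 24 in DESeq2. The log2 fold change of Sepp1 was 4.39 ± 0.53 (SE), that of Slc4a11 3.03 ± 0.38 and that of Nefl -3.63 ± 0.39.

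The difference at day 1 minus that of the other days passed for no gene in edgeR (0.0%), with 306 genes at an unadjusted p under 0.05 and 0 calls in DESeq2. Without a count filter it passed for 21 genes as higher and 19 as lower, and without day 7 for 1 as lower. In the fit with the filter no gene is named as particular to day 1. In simulated counts 89 of 200 genes changed 4-fold at day 1 were recovered among 12154, with 5 false calls. Those counts had the common dispersion for every gene and no other change over days or between arms. They therefore do not give the power of the fit in these data. In the edgeR shift over the other days Cdh1 was lower by -3.04 ± 0.23 (SE, adjusted p = 0.000159), Il1rn was higher by 5.16 ± 0.41 (adjusted p = 0.000178), Gadd45a by 2.24 ± 0.21 (adjusted p = 0.000412) and Axl by 1.39 ± 0.13 (adjusted p = 0.000429). Msc and Gemin4 did not pass there, at -0.71 ± 0.67 (adjusted p = 0.583) and -0.49 ± 0.25 (adjusted p = 0.269). For the lysosome list 24 of 43 genes were called higher and none lower over the other days, and for the neuronal and axon list 14 were lower and 5 higher of 49, although its median at day 0 was 0.16. Of the 10 epithelial genes 4 were lower and none higher, and the list's median at day 0 was -0.05. Dsp was called higher with FoxO6 at day 0, with 25 counts with DsRed and 102 with FoxO6. Of the 34 collagens and matrix genes 8 were called higher and 4 lower over the other days, with medians of 0.09, 0.09, 0.28 and 0.14 at days 0, 3, 5 and 7. Of the cell division genes 16 S phase and 21 G2/M genes were called lower over the other days and none higher.

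**Figure D5:**
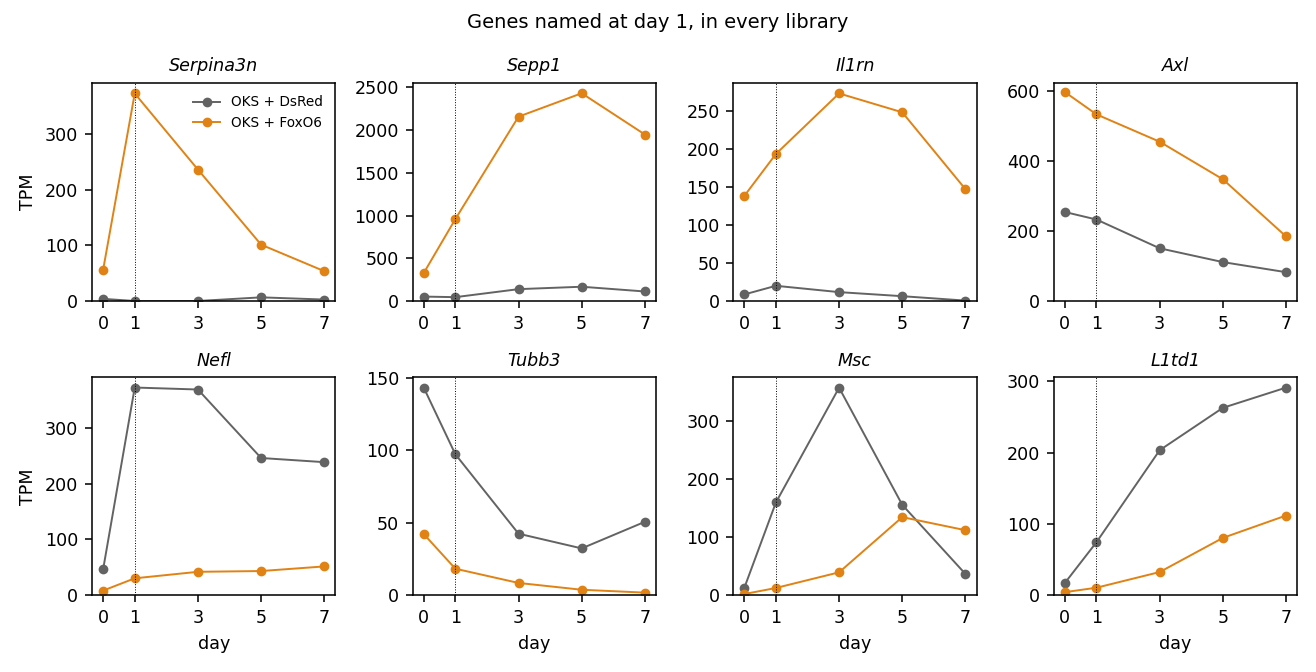
TPM of 8 genes in every library, DsRed in grey and FoxO6 in orange, against day, with day 1 as a dotted line and 1 library per point. Serpina3n, Sepp1, Il1rn and Axl are higher with FoxO6 on all 5 days, Nefl, Tubb3 and L1td1 are lower on all 5, and the lines of Msc cross between days 5 and 7.

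The courses of single genes show several ways to a day 1 difference. Serpina3n was at its highest at day 1, and its TPM from day 0 to day 7 was 56.2, 372, 236, 101.05 and 53.5 in the FoxO6 arm and 3.87, 0, 0, 6.56 and 2.57 in the DsRed arm. Sepp1 had 327, 958, 2158, 2432 and 1949 with FoxO6 and 51.7, 45.0, 139, 167 and 111 with DsRed, so day 1 lay on the way up. Nefl had 46.7, 372, 368, 246 and 238 with DsRed and 8.44, 30.4, 42.1, 43.4 and 51.7 with FoxO6, a step at day 1 that was much smaller with FoxO6. Tubb3 was past its highest level at day 1 in both arms, with 143, 97.2, 42.5, 32.3 and 50.7 with DsRed and 42.2, 18.3, 8.52, 3.83 and 1.85 with FoxO6. Cdh1 started from 11 and 2 counts at day 0, had 37 and 2 at day 1 and 853 and 113 at day 7. Axl was below its day 0 level at day 1 in both arms, at 254 and 232 with DsRed and 596 and 532 with FoxO6.

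Set against day 0 of the same arm, the genes called lower at day 1 had a median step of 1.04 on the log2(TPM + 1) scale in the DsRed arm, with 227 of 441 up by over 2-fold and 15 down. In the FoxO6 arm their median step was -0.30, with 50 up and 115 down. The 342 genes called higher had a median step of -0.13 with DsRed and 0.56 with FoxO6, where 91 were up by over 2-fold and 18 down. All genes tested had medians of 0.18 and 0.07. These steps use the day 1 libraries that chose the genes, so they describe where the day 1 gap lies and support nothing further.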

How the data were processed

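RNA of MEFs under OKS + FoxO6 and OKS + DsRed was sequenced in 1 library per arm and day, grouped by the titles in their labels. The authors mapped reads to GENCODE M13 (GRCm38, mm10) using Bowtie2 within RSEM and deposited expected counts, estimates that are not normalized. The TPM values were deposited by the authors from the same RSEM runs, so both can shift reads between genes that share sequence. The labels name a VAHTS library kit and the methods a TruSeq kit.

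Expected counts were rounded before each test, and libraries summed to between 1208379 and 2225750, so genes under 10 counts were left out. Differences (log2, pseudocount 1) and the 2-sided exact binomial test with Benjamini-Hochberg adjustment used Python 3.11.15, numpy 2.4.6, pandas 2.3.3 and scipy 1.17.1, and figures matplotlib 3.10.9. In R 4.3.3, edgeR 4.0.16 fitted the arms over all 10 libraries (common dispersion 0.0407), with DESeq2 1.42.0 as an alternative. On simulated data the exact test recovered 177 of 200 genes changed 4-fold among 11303, with 7 false calls, and edgeR's day 1 contrast 130 of 200 among 12154, with 10. The edgeR counts were simulated at the common dispersion without other change over days or between arms. Gene positions follow GENCODE M21 (GRCm38) and promoters RefSeq.

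The lists, the comparison and the genes were chosen with earlier results of these data known. Genes named by rule are the transduced factors, the 12 highest and 12 lowest called differences other than predicted genes, up to 5 called members of each list (or 3 of highest level) and 10 genes that the study discusses. Other genes in the text complete a list, share reads or were called on all days or on opposite sides, and were chosen after their values were seen. A few genes counted in the lists are not reported here by name. Alternatives were another pseudocount, CPM scalings, count filters, centring, 3-fold, other size factors and each other day left out.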

Additional observations from a re-analysis of the deposited data

How the results depend on the processing

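No paired analysis was possible within day 1 because each arm has 1 library there and no replicate numbers. Over the days, the edgeR fit with day as a factor compares the arms within each day. The 343 higher and 441 lower calls at day 1 stayed within 1.5 times of these counts under every alternative run but 3-fold, which left 145 and 212 (of the 590 and 697 past 2-fold, 179 and 252). Without a count filter 1742 and 2058 genes were past 2-fold. Chosen after seeing the data, requiring 2-fold in both TPM and CPM left 307 and 414, and leaving out genes whose effective length differed over 1.5 times left 320 and 407. The 5 genes of the edgeR day 1 contrast depend on the spread: without a filter 102 were higher and 139 lower, DESeq2 gave 13 and 24, and with another day left out (lowest and highest) 1 to 26 were higher and 0 to 30 lower, fewest without day 5 and most without day 7. The difference from the other days gave 21 and 19 without a filter, and 0 higher and 0 to 1 lower with a day left out. The shift over the other days gave 981 and 921 without a filter, and 132 to 733 higher and 103 to 751 lower with a day left out, fewest without day 5 and then day 3. The cause was not tested.

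List medians that moved by over 0.1 did so on CPM with TMM factors for TLR and NF-kB (0.18), histone deacetylases (0.094), interferon gamma (0.092), other FoxO genes (-0.40), pluripotency (-0.18), type I interferon (-0.20) and macrophage (-1.33); with a pseudocount of 0.1 for epithelial (-1.46) and neuronal (-0.76); with at least 20 counts for TLR and NF-kB (0.13), epithelial (-1.20), muscle contractile (-0.67), pluripotency (-0.092), type I interferon (-0.46), wound healing (-0.018), keratinocyte (0.55) and skeletal muscle (-0.57); and without genes of unequal effective length for epithelial (-1.11), pluripotency (-0.12) and type I interferon (-0.32). Of these, the sign changed for interferon gamma, pluripotency, wound healing, keratinocyte and skeletal muscle. Medians near 0 also changed sign on CPM with TMM factors for TGF-beta and BMP (0.011) and the nuclear respiratory chain (-0.023). Among the genes named by rule, 5 called genes fell under 2-fold on that scale, Bnip3l, Col12a1, Postn, Sesn3 and Vmp1, and no called gene changed sign, while Atp5b, not called, went from 0.02 to -0.04. Genes under about 10 counts, most epithelial and pluripotency genes, cannot be read at this depth.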

Other observations

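Among the genes called in the same direction on all 5 days, several belong to no list. They were chosen after their values were seen. The death receptor relatives Tnfrsf22, Tnfrsf23 and Tnfrsf26, which lie together in the mouse genome, were all higher with FoxO6 at day 1, with 88 and 272, 89 and 251, and 3 and 31 counts in the DsRed and FoxO6 libraries. In edgeR's shift over the other days they were higher by 1.77 ± 0.16, 2.18 ± 0.17 and 4.12 ± 0.46 (log2 fold change ± SE). Vegfd, a growth factor of lymphatic vessels, had 11 and 84 counts at day 1, while Vegfa was lower. Adh7, an alcohol and retinol dehydrogenase, had 183 and 709 counts, and Nid1 (nidogen 1), a linker of the basement membrane, had a TPM of 275 and 716. Cldn1, a claudin of tight junctions, was higher at 4 and 39 counts although the measured epithelial list was lower.

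On the lower side, Crabp2, which carries retinoic acid to the nucleus, had 148 counts with DsRed and 24 with FoxO6, and Hey2, a transcriptional repressor downstream of Notch, had 179 and 41. The lipoprotein lipase gene Lpl had 672 and 144 counts, and the noncoding RNA Miat had 1193 and 259. At day 0 both were closer, with 159 and 138 counts for Lpl and 402 and 268 for Miat, from libraries of 1208379 and 2225750 counts. Lgr6, a receptor for R-spondins, had 125 and 15 counts, and Tppp3, a tubulin-binding protein, had 100 and 14.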
